A study of Mus musculus with 2 samples.

Results

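The family of miR-103 and miR-107 comprises 3 mouse genes, Mir103-1, Mir103-2 and Mir107, of the 1973 microRNA genes in the deposited tables. They were chosen by name, because each lies in an intron of a pantothenate kinase gene, and all 3 had a row in both tables. Their RNA was measured in whole livers of B6NCrl mouse embryos at embryonic day 14.5, a stage at which the organ holds immature liver cells and forms red blood cells. The 2 small RNA libraries, replicate 1 and replicate 2, make up the only group, and the labels name no treatment and no altered gene. Each is labelled as one liver, yet sex is given as pooled and the donor entry is the same for both. The values therefore describe this tissue and the spread between 2 libraries, which may be technical, and no comparison of conditions can be made.

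Pantothenate kinases carry out the first step in the synthesis of coenzyme A, a carrier of acyl groups that fatty acid metabolism depends on. Like other microRNAs, miR-103 and miR-107 are cut from a hairpin, and one strand is loaded into an Argonaute protein and guides it to messenger RNAs that pair with its seed, bases 2 to 8. In adult mice both microRNAs are known to lower insulin sensitivity in liver and fat, where caveolin-1 is a target, and in human cancer cells they repress Dicer, the enzyme that releases mature microRNAs from their hairpins.

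All members occupied the same place in their host genes. Mir107 (ENSMUSG00000065594) lies on the minus strand at chr19:34820687-34820773, in Pank1. Mir103-2 (ENSMUSG00000065563) lies on the plus strand at chr2:131288052-131288137, in Pank2. Mir103-1 (ENSMUSG00000065553) lies on the plus strand at chr11:35782396-35782481, in Pank3. In the GENCODE M21 annotation of GRCm38, the assembly also called mm10, each hairpin was in intron 5 of a principal coding transcript with 7 exons, on the host's strand. The distance from the upstream exon was 326 bases in Pank1, 454 in Pank2 and 688 in Pank3, and the introns were 7282, 5801 and 1740 bases long. None of the spanning host transcripts (3 of Pank1, 7 of Pank2, 1 of Pank3) had an exon over the hairpin.

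The hairpins are shown because what they share limits which reads can be given to one gene. All 3 matched a RefSeq entry of GRCm38.p6, and they are 87 bases long for Mir107 and 86 for the others. Capitals mark bases inside a 22-base window that also occurs in another of the 3 hairpins.
Mir107: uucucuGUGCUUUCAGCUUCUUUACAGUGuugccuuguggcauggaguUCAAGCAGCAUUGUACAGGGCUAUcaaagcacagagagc
Mir103-2: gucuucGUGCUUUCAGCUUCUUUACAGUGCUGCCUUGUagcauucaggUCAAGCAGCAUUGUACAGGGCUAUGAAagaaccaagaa
Mir103-1: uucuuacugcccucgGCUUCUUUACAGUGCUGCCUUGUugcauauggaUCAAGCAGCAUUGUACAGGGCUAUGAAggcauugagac
The longest run shared by Mir103-2 and Mir103-1 was 27 bases, and each shared a run of 24 bases with Mir107. Both runs start at base 49 of each hairpin and lie over the 3p arm, the side that gives the main mature product.

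The mature products follow, with the seed in capitals, because they show how little separates the members.
mmu-miR-107-3p: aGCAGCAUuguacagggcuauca
mmu-miR-103-3p: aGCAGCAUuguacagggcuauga
mmu-miR-107-5p: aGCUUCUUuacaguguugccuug
mmu-miR-103-2-5p: aGCUUCUUuacagugcugccuug
mmu-miR-103-1-5p: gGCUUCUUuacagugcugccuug
Mir103-1 and Mir103-2 both make mmu-miR-103-3p, which is 23 bases long. Against mmu-miR-107-3p it has 1 difference, G22C, counted from the 5′ end with the base of miR-103 first. The first 21 bases are thus the same in all 3 genes, and so is the 3p seed, which no other mature sequence in the RefSeq table carries. For reads that start at their first base, the 5p arms separate the genes better. From mmu-miR-103-1-5p to mmu-miR-103-2-5p the change is G1A, so their last 22 bases are the same. From mmu-miR-103-2-5p to mmu-miR-107-5p the change is C16U.

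These sequences set the length a read needs to be placed at a single member. A read that starts at the first base of the 3p product must be at least 22 bases long to be found in Mir107 alone. At Mir103-1 or Mir103-2 it must reach 25 bases, which is longer than the mature product itself. Shorter reads occur in more than one hairpin. The tables hold multimapping reads in a row of their own and not at any gene (34.0% of reads in replicate 1 and 33.1% in replicate 2). How many of them are miR-103 or miR-107 cannot be read from the tables. The counts at Mir103-1 and Mir103-2 are therefore lower limits and leave out the unmodified mature miR-103-3p. Those at Mir107 are lower limits too, since they leave out 3p reads from the first base that end within the 21 shared bases. Calling counts lower limits, here and below, takes reads as placed by exact match. How mismatches were treated is not given in the sources used here, and reads misplaced between members were not checked. The tables do not separate the arms either, so the arm behind each count is unknown.

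**Figure D1:**
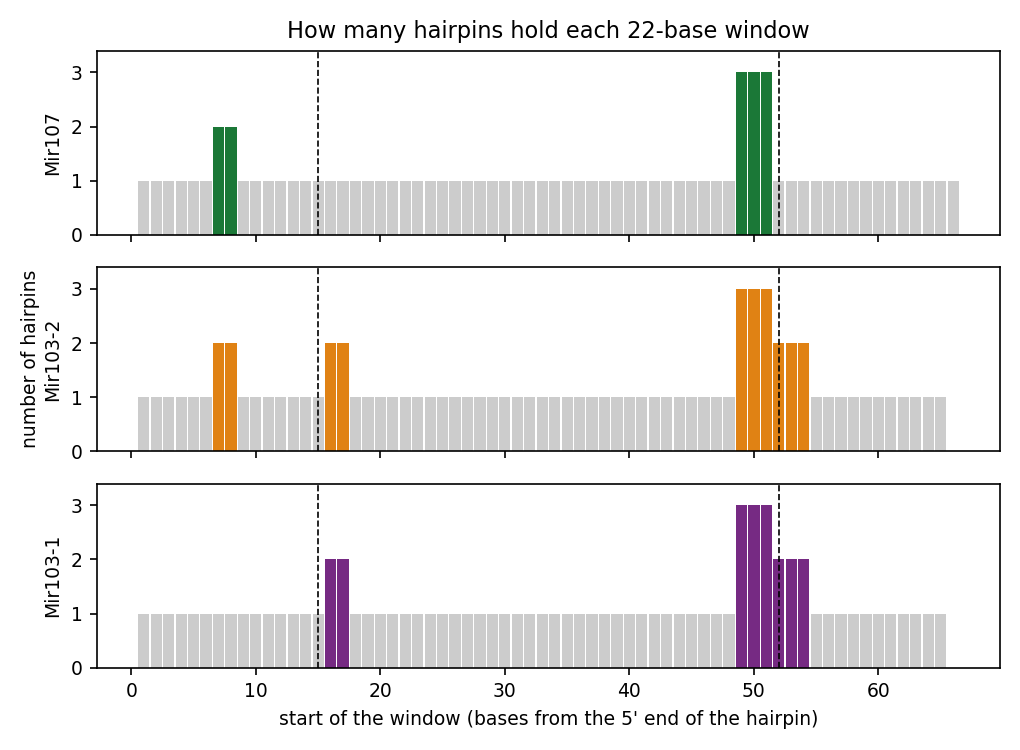
For each member, the bars give the number of RefSeq mouse microRNA hairpins that hold the 22-base window starting at each base of the hairpin; coloured bars mark windows in more than 1 hairpin and dashed lines the first bases of the 5p and 3p products. Windows starting at bases 49 to 51 occur in all 3 members, and those starting at bases 52 to 54 only in Mir103-1 and Mir103-2. Nearer the 5′ end, windows at bases 16 and 17 occur in Mir103-1 and Mir103-2, and those at bases 7 and 8 in Mir107 and Mir103-2.

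Windows of this length over the whole hairpin were mostly particular to one gene. Of 66 windows in Mir107, 5 (7.58%) also occurred in another hairpin, as did 10 of 65 (15.4%) in Mir103-2 and 8 of 65 (12.3%) in Mir103-1. Among the 1005 RefSeq hairpins searched on both strands, no hairpin outside the family held any of them. The search covered hairpins and not the genome. The shared windows are few, but in Mir103-1 and Mir103-2 those at bases 52 and 53 lie inside the mature 3p product. In the same 2 genes the shared window at base 16 lies inside the mature 5p product.

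Depth and tissue checks were as follows. Counts on the genes' own strand summed to 2353946 in replicate 1 and 3132763 in replicate 2, and levels are given in CPM, counts per 1000000 of these sums. The 3 counts that an observed 0 allows stand for 1.27 CPM in replicate 1 and 0.958 CPM in replicate 2. Intervals and such limits cover counting error only, since PCR copies are not independent molecules. The hepatocyte list, led by Mir122, held 106495 and 120068 CPM in replicates 1 and 2, and all 6 of its measured members had at least 10 counts in each. The erythroid list (Mir451a, Mir144, Mir486, Mir210) held 50956 and 40894 CPM, with 4 of 4 measured members at that level. Replicate 1 held more of the neural list (715.8 against 330.1 CPM, 9 of 14 members tested, Mir124a-2, Mir124a-3 and Mir9-2 at 0 in both) and of microRNAs in Hox gene clusters (14746 against 4577 CPM, 5 of 6 tested).

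Among the members, Mir107 held nearly all of the uniquely placed counts. It had 4097 counts in replicate 1 and 5792 in replicate 2, which are 1740 CPM (95% Clopper-Pearson interval 1688 to 1795) and 1849 CPM (1802 to 1897). The mean was 1795 ± 76.6 CPM (SD, n = 2), which is rank 70 of 1973 genes. Both libraries were close to each other, and 20.8% of the 332 tested genes, those with 10 or more counts in both libraries, stood above it.

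Mir103-2, in Pank2, was lower. It had 293 counts in replicate 1 and 324 in replicate 2, or 124.5 CPM (110.6 to 139.6) and 103.4 CPM (92.5 to 115.3). Its mean of 113.9 ± 14.9 CPM (SD, n = 2) took rank 188, below the median of 172.6 CPM over the 332 genes. Mir103-1, in Pank3, was near the lower end of what the depth can measure, with 15 counts in replicate 1 and 24 in replicate 2. These counts are 6.37 CPM (3.57 to 10.5) and 7.66 CPM (4.91 to 11.4), with a mean of 7.02 ± 0.911 CPM (SD, n = 2) at rank 307. Its lower limits still lay above the level that a count of 0 allows. The family as a whole came to 1871 CPM in replicate 1 and 1960 CPM in replicate 2, or 1916 ± 62.7 CPM (SD, n = 2). That is 0.192% of the same-strand counts.

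**Figure D2:**
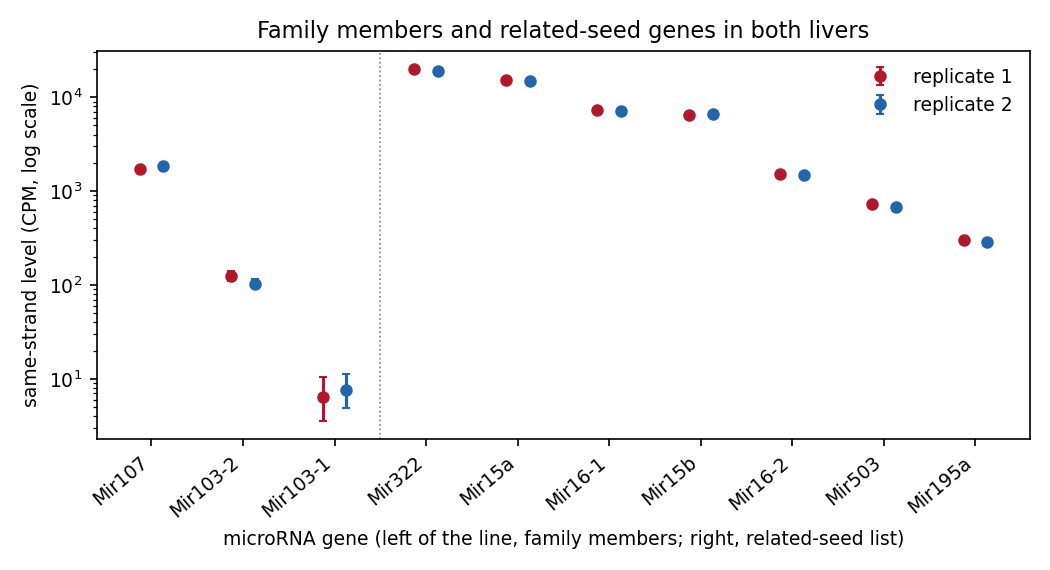
Same-strand level in CPM on a log axis for the family members (left of the dotted line) and the 7 related-seed genes tested (right), with 1 point per library and 95% Clopper-Pearson intervals that cover counting error only. The members span from 6.37 CPM for Mir103-1 to 1849 CPM for Mir107, and their order is the same in both libraries.

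The order Mir107, Mir103-2, Mir103-1 was the same in both libraries, and no intervals of different members overlapped. Mir107 made up 93.0% of the family's counts in replicate 1 (92.2 to 93.7) and 94.3% in replicate 2 (93.7 to 94.9). Mir103-2 made up 6.65% (5.93 to 7.43) and 5.28% (4.73 to 5.87). Mir103-1 made up 0.341% (0.191 to 0.561) and 0.391% (0.251 to 0.581). Counts were not divided by hairpin length, since each read stands for one small RNA and the hairpins differ by a single base. This order is that of uniquely placed reads. By the sequences above, mature miR-103-3p of full length cannot be given to either Mir103 gene, whereas full-length miR-107-3p differs from it, so the counts do not rank the output of the 3 host introns.

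Between the 2 genes that share a mature product, Mir103-2 exceeded Mir103-1 by 19.5-fold in replicate 1 (95% exact interval 11.6 to 35.3) and by 13.5-fold in replicate 2 (8.91 to 21.4). Reads that tell these genes apart must reach past the runs they share in the hairpins above. Other pairs of loci with an identical mature product gave a frame for this ratio. In 17 such pairs, this one included, both loci had at least 10 counts in each library, and the higher locus exceeded the lower by a median of 4.80-fold on mean CPM, with a range from 1.07-fold to 132.2-fold. The ratio for Mir103-2 and Mir103-1 was 16.2-fold, and 3 pairs had a larger one. They were Mir194-2 with Mir194-1, Mir181b-2 with Mir181b-1 (39.7-fold) and Mir92-1 with Mir92-2 (31.2-fold). Such genes were lower in these counts generally, with a median of 41.8 CPM over the 41 of them that were tested, against 241.9 CPM over the 291 others. Mir103-2 ranked 15 and Mir103-1 ranked 41 among the 87 with a row. These are descriptions without a test, and some loci belong to more than one pair.

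The genes nearest in level, were taken as the 2 ranks above and below each member. Around Mir107 stood Mir324 (2042 ± 93.8 CPM), Mir484 (2041 ± 134.5 CPM), Mir185 (1791 ± 58.0 CPM) and the hepatocyte microRNA Mir148a (1766 ± 39.2 CPM). The last 2 differed from Mir107 by less than its SD between the libraries. Around Mir103-2 stood Mir3072 (120.5 ± 31.0 CPM), Mir30c-1 (114.6 ± 15.4 CPM), Mirlet7a-1 (109.6 ± 0.608 CPM) and Mir362 (106.3 ± 0.0646 CPM), all within its SD. Mir30c-1 and Mirlet7a-1 also share a mature product with another locus, so their levels are lower limits too. Around Mir103-1 stood Mir5122, Mir1191, Mir3076 and Mir193a, between 6.59 and 7.28 CPM and likewise within its SD.

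Which member passed the test between the libraries depended on the scaling. By library totals, Mir107 was lower in replicate 1, with a ratio of replicate 1 over replicate 2 of 0.941 (95% exact interval 0.904 to 0.980, adjusted p = 0.00912). This is a two-sided exact binomial test with Benjamini-Hochberg adjustment over the 332 genes. By TMM, a scaling that centres the ratios of most genes, Mir107 had a ratio of 0.962 (0.924 to 1.00) and an adjusted p of 0.124 by the same exact test. Mir103-2 went the other way, with a ratio of 1.20 by totals (1.02 to 1.41, exact test, adjusted p = 0.0531). By TMM it was higher in replicate 1, with a ratio of 1.23 (1.05 to 1.44, exact test, adjusted p = 0.0305). Mir103-1 had a ratio of 0.832 by totals (0.406 to 1.65) and 0.850 by TMM (0.414 to 1.69), with adjusted p of 0.772 and 0.857 by the exact test. At its depth a difference of the size seen in the other members was not detectable.

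**Figure D3:**
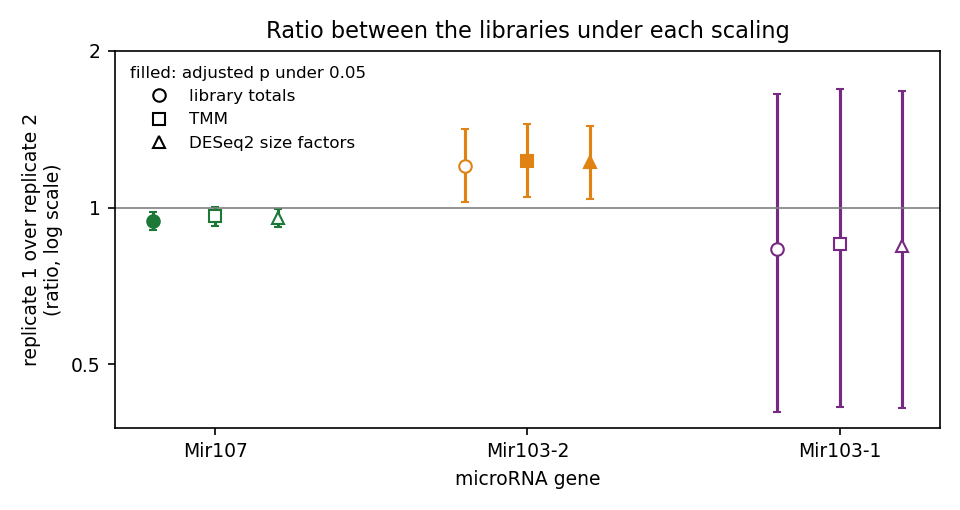
Ratio of replicate 1 over replicate 2 on a log axis for each member under library totals (circles), TMM (squares) and DESeq2 size factors (triangles), with 95% exact intervals and filled symbols where the adjusted p was under 0.05. Mir107 lies below 1 and is called by totals only, while Mir103-2 lies above 1 and is called by TMM and DESeq2 size factors only.

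These calls have to be read against how many genes differed between the libraries. By totals 139 of the 332 genes (41.9%) passed, with 61 (18.4%) toward replicate 1 and 78 (23.5%) toward replicate 2. By TMM 128 (38.6%) passed, with 69 (20.8%) toward replicate 1 and 59 (17.8%) toward replicate 2. By DESeq2 size factors 132 (39.8%) passed, with 66 (19.9%) toward each. A single member of 3 passed under each of the 3 scalings, which is near that background, so the count says nothing particular about the family. The test compares these libraries and not conditions. The scalings differ little, with factors of 0.989 and 1.01 for replicates 1 and 2, and over all tested genes the log2 ratio of replicate 1 to replicate 2 had a median of -0.03 by totals and 0.00 by TMM. The log2 ratios of Mir107, Mir103-2 and Mir103-1 were -0.09, 0.27 and -0.25 with 0.5 added to each count, and the median size of the log2 ratio over all tested genes was 0.16.

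**Figure D4:**
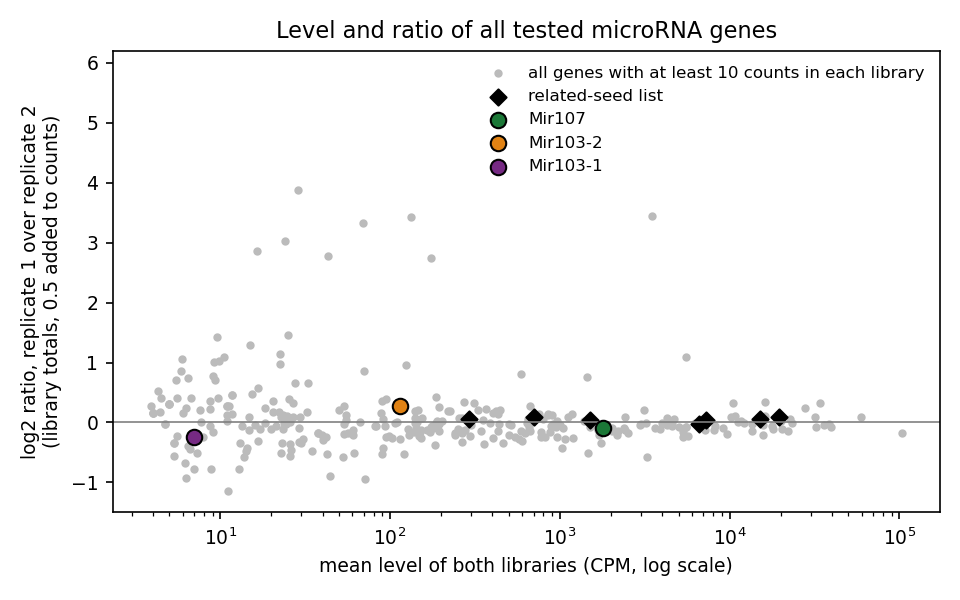
Mean CPM on a log axis against the log2 ratio of replicate 1 over replicate 2 by library totals for the 332 tested genes, with the members and the related-seed list marked. The members lie among the other genes of their level, and the few genes with log2 ratios above 2 are not members.

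A comparison of the members with each other does not depend on the scaling. Mir107 had 14.0 counts for each count of Mir103-2 in replicate 1 (12.4 to 15.8) and 17.9 in replicate 2 (16.0 to 20.1). This proportion differed between the libraries by a two-sided Fisher's exact test (odds ratio 0.782, p = 0.00323, adjusted p = 0.00968 over 3 pairs of members). For Mir107 against Mir103-1 the odds ratio was 1.13 (Fisher's exact test, adjusted p = 0.747), and for Mir103-2 against Mir103-1 it was 1.45 (Fisher's exact test, adjusted p = 0.483). The test was added after the counts had been seen, and it takes reads as independent. It was not run on pairs of other genes, so how common such a shift is between these libraries is not known. By totals, 41.9% of single genes passed the exact binomial test between them. The neural and Hox cluster lists also differed between the libraries, by 2.17-fold and 3.22-fold toward replicate 1. By totals 7 of 9 and 5 of 5 tested members passed in that direction, against 18.4% of all tested genes. The erythroid list was 1.25-fold toward replicate 1, with 3 of 4 members passing in that direction and 1 in the other. The hepatocyte list had a ratio of 0.887, with 4 of 6 members passing toward replicate 2 and 0 toward replicate 1. Of all tested genes, 23.5% passed toward replicate 2. Mir122 alone held 97348.5 of the hepatocyte list's 106495 CPM in replicate 1 and 110371 of its 120068 CPM in replicate 2. The ratio of that list is thus mostly the ratio of Mir122. Lists for white cells, endothelium and muscle had ratios of 1.05, 1.07 and 1.12. In them 1 of 4, 1 of 1 and 1 of 3 tested members passed toward replicate 1, and 1 white cell member passed toward replicate 2. The part of these lists in the shift between Mir107 and Mir103-2 was not tested.

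Genes of a list with a related seed lay on both sides of Mir107 in uniquely placed counts. The miR-15/16 group, best known for holding back the cell cycle, carries the same core one base further from the 5′ end, as these products show, again with bases 2 to 8 in capitals.
mmu-miR-15a-5p: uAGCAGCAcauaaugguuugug
mmu-miR-16-5p: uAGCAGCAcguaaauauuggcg
mmu-miR-322-5p: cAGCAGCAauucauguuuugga
mmu-miR-503-5p: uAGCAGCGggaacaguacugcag
The run AGCAGC starts at base 1 in miR-103 and miR-107 and at base 2 in these. Of 13 symbols listed for this group, 9 had a row and 7 of these were tested. The list took in Mir497b by its name, but its mature product has the seed ACCACAG and lacks the AGCAGC run. Together the 9 held 51916 CPM in replicate 1 and 49924 CPM in replicate 2, so Mir107, Mir103-2 and Mir103-1 made up 3.48% and 3.78% of the joint counts. Because full-length miR-103-3p is not in the family's counts, these shares do not rank the 2 groups by abundance. Mir322 (19473 ± 894.8 CPM), Mir15a (15136 ± 409.4 CPM), Mir16-1 (7236 ± 143.9 CPM) and Mir15b (6574 ± 107.3 CPM) stood above Mir107. Mir16-2 (1507 ± 26.1 CPM), Mir503 (703.0 ± 34.4 CPM) and Mir195a (292.1 ± 8.11 CPM) stood below it and above Mir103-2. Mir16-1 and Mir16-2 share a mature product, so their levels are lower limits. Mir195b had 0 counts in both libraries. Mir497b had 0 and 2 counts on its own strand in replicates 1 and 2.

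The related genes moved little between the libraries. By totals Mir322, Mir15a and Mir16-1 passed the exact test and were higher in replicate 1 (3 of 7 tested, against 18.4% of all tested genes called in that direction), and none was higher in replicate 2. Their ratios of replicate 1 over replicate 2 were 1.07, 1.04 and 1.03. The median log2 ratio was 0.06 over the 7 and -0.03 over all 332 genes. By TMM the same 3 genes and Mir503, with a ratio of 1.09, passed and were higher in replicate 1 (4 of 7, against 20.8% of all tested genes). Mir16-2, the related gene nearest to Mir107 in level, passed under neither scaling, with a ratio of 1.02 by totals (0.981 to 1.07) and 1.05 by TMM.

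No member had reads on the opposite strand. The opposite-strand count was 0 of 4097 and 0 of 5792 at Mir107, 0 of 293 and 0 of 324 at Mir103-2, and 0 of 15 and 0 of 24 at Mir103-1, in replicates 1 and 2. With a limit of 3 counts, these allow an opposite-strand share of up to 0.0732% and 0.0518% at Mir107 and up to 1.02% and 0.926% at Mir103-2. At Mir103-1 they allow 3 of 15 and 3 of 24 reads, so its depth says little.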

How the data were processed

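Each library has 1 deposited table of raw read counts at microRNA genes, made by the authors with assembly mm10 and annotation M4, per the notes filed with it. Per the labels, libraries hold RNA under 30 nucleotides. Aligner, counter, trimming and versions: not given in the sources used here. Same-strand counts were divided by their total without the rows that name no gene. Unmapped reads were 18.6% and 17.7%, and reads in no gene 10.6% and 10.4%, of all reads in replicates 1 and 2. Symbols came from GENCODE M21 by Ensembl ID without version (1894 of 1973 matched), and sequences from RefSeq on GRCm38.p6. Genes with 10 or more counts in both libraries were compared by the exact binomial test, two-sided, against the share that the library sizes give. P-values were adjusted by Benjamini and Hochberg's method, and 0.05 was the threshold (scipy 1.17.1). TMM came from edgeR 4.0.16 and size factors from DESeq2 1.42.0. With 1 group, no edgeR contrast exists. Only the exact binomial test and the interval of the ratio were tested on simulated counts. Those counts held set fold changes and counting error, with no other spread between libraries.

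Genes were named by rule: the 3 members, the 2 genes ranked above and below each, the related-seed list and tissue markers. The members and lists were chosen with earlier results of these data known. Alternatives were other count minimums, strand, scalings, pseudocounts, window lengths and each library left out. The Fisher tests and the identical-product pairs were added later.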

Additional observations from a re-analysis of the deposited data

Results flagged for a closer look

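Among the family and the related-seed list, 1 gene had a signal outside the counts used above. At Mir497b (chr11:70234692-70234816, minus strand), which was listed by its name and whose own product has another seed, the opposite-strand count was 680 in replicate 1 and 909 in replicate 2, above the 3 counts that a count of 0 allows. They made up 100% (95% Clopper-Pearson interval 99.5 to 100) and 99.8% (99.2 to 99.97) of all reads counted there. Mir497, which carries the seed of the miR-15/16 group, is annotated on the plus strand of the same place (chr11:70234717-70234800) and has no ID of its own in the counts analysed here. As shares of the counts regardless of strand these reads come to 261.1 and 260.4 CPM. Such counts are not particular to Mir497b, since other genes of the tables hold larger ones, such as Mir142b with 126731 and 180061. Mir107, Mir103-2 and Mir103-1 had no such reads.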

How the results depend on the processing

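The order of the members and the direction of each member's ratio between the libraries were the same under every alternative that gave a value. Mir107, at a ratio of replicate 1 over replicate 2 of 0.941 by totals, did not pass at 0.962 by TMM, at 0.955 by DESeq2 size factors or at 0.941 with no count minimum, and its adjusted p by the exact test ran from 0.000826 to 0.124 over 8 settings. Mir103-2, at 1.20, passed at 1.23 by TMM, at 1.22 by DESeq2 size factors, at 1.21 with counts regardless of strand and at 1.20 with a minimum of 100 counts, and its adjusted p by the exact test ran from 0.0305 to 0.287. Mir103-1 passed in none of 7 settings and had too few counts for a minimum of 100. The number of differing genes ran from 121 with no minimum to 147. Levels followed the denominator. Mir107 came to 1616 CPM regardless of strand, 2003 CPM without Mir122 in the totals and 679.2 CPM over all reads. The family came to 1725, 2138 and 724.9 CPM in the same order, and over all reads Mir103-2 came to 42.99 CPM and Mir103-1 to 2.66 CPM. Without one or the other library, the mean became 1740 to 1849 CPM for Mir107, 103.4 to 124.5 CPM for Mir103-2, 6.37 to 7.66 CPM for Mir103-1 and 1871 to 1960 CPM for the family. With 18-base windows the share found in another hairpin was 18.6% for Mir107, 31.9% for Mir103-2 and 23.2% for Mir103-1. A ratio between libraries needs both, so none exists with one left out. No paired analysis was possible because there is 1 group. Depth limits Mir103-1 most.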
